A study of Homo sapiens with 6 samples.

Results

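The BCL2 family decides whether a cell opens its mitochondria to apoptosis, and 10 of its members were followed here, namely MCL1, BCL2, BCL2L1, BCL2L11, BIK, BAX, BAK1, BBC3, PMAIP1 and BID. Their probe sets were taken from the platform annotation where it names exactly 1 gene symbol. This gave 30 probe sets of 9 genes, out of 41091 single-gene probe sets of 19775 genes, and BBC3, which encodes the BH3-only protein PUMA, had a probe set shared with other symbols only and was not used. RNA came from SW480, an established human colorectal adenocarcinoma line, grown with fetal calf serum and transfected. The groups are named CPEB3, after an RNA-binding protein that regulates mRNA translation, and NC, for a negative control. The sample titles do not state whether CPEB3 was added or reduced. Each group had 3 arrays (Affymetrix HG-U133 Plus 2.0) called biological replicates in the labels, which give no culture, vector, clone or time after transfection, and a p-value here covers the spread among these 6 arrays, which may in part be technical.

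Proteins of this family share short BCL2 homology (BH) domains and bind one another at the outer mitochondrial membrane. Pro-survival members (MCL1, BCL2 and BCL-XL, the product of BCL2L1) hold the pore formers BAX and BAK1 in check. BH3-only members (BIM from BCL2L11, BIK, PUMA, NOXA from PMAIP1, and BID) sense stress and either block the pro-survival proteins or activate the pore formers directly. Much of this control acts on protein, through degradation of MCL1 and NOXA or cleavage of BID, and none of that is measured by an mRNA array.

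Values are log2 of the normalized intensity, and every difference is arrays labelled CPEB3 minus arrays labelled NC, tested with limma over all 54613 probe sets with a Benjamini-Hochberg adjusted p under 0.05 as the threshold. The groups correlated with r from 0.991 to 0.992 across probe sets, against 0.997 to 0.998 within a group. CPEB3 itself did not pass the test as higher at any of its 4 probe sets in the arrays labelled CPEB3. The sample titles name CPEB3 or NC without stating overexpression. Whether the transfection lowered CPEB3, the labels are exchanged or these probe sets do not read a transfected construct was not tested. An exchange of the labels would turn the direction of every difference given here. At 3 of its 4 probe sets CPEB3 was lower in the arrays labelled CPEB3 (by 0.25, 0.35 and 1.44 on the log2 scale), all of them dimmer than the median probe set. These falls passed the test (limma, Benjamini-Hochberg adjusted p = 0.0473, 0.00877 and 7.80e-05). At the brightest the difference was 0.05 (95% interval -0.10 to 0.20). Among 9 colorectal epithelial markers 2 rose and 0 fell, with summed linear intensities of 8540 to 8820 in the arrays labelled CPEB3 and 7740 to 7880 in those labelled NC. KRT20, a keratin of differentiated intestinal epithelium, rose by 0.87 and KRT18 by 0.26 (limma, Benjamini-Hochberg adjusted p = 7.98e-05 and 0.0238), while EPCAM stood at 11.13 and 11.09. Of 8 leukocyte markers ITGAM rose (by 0.32, from 4.32 to 4.64; limma, Benjamini-Hochberg adjusted p = 0.0176), and their summed linear intensity was 109 to 121 against 100 to 104. ITGAM, CD3E (4.92 and 4.74) and CD3D (4.53 and 4.46) lay above the median probe set and the other 5 below it, among them the pan-leukocyte marker PTPRC (1.62 and 1.48). Of 10 fibroblast and endothelial markers DCN rose (by 0.30; limma, Benjamini-Hochberg adjusted p = 0.0205), with sums of 185 to 197 against 174 to 181. Over all genes, each read at its brightest probe set, 8.32% rose and 10.5% fell. The single leukocyte marker and the single fibroblast or endothelial marker that rose lie near that share. The 3′ minus 5′ signal of ACTB, a sign of RNA integrity, was 3.24 to 3.54 in the arrays labelled CPEB3 and 3.21 to 3.27 in those labelled NC, and that of GAPDH 0.01 to 0.14 and -0.04 to 0.01. On every array ACTB was thus far brighter at its 3′ end, while GAPDH was nearly even. Whether this bears on probe sets of 1 gene that disagree was not tested. The part of these shifts in the differences described next was not tested.

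Within the family, the genes for the BH3-only proteins BIK and NOXA fell almost 2-fold, the pro-survival gene MCL1 fell by an amount that varied between its probe sets, and BID rose slightly. The pore formers BAX and BAK1 and the pro-survival genes BCL2 and BCL2L1 did not pass the test at any probe set. Of the 30 probe sets, 7 fell (23.3%), 2 rose (6.67%) and 21 did not pass. Over all probe sets of the array, 7.86% fell and 6.59% rose, or 14.4% in either direction, so the share that rose in the family was near the background. The share that fell was above it, but its 7 probe sets belong to 4 genes, and probe sets of 1 gene can read the same mRNA and so are not independent. The median difference was 0.00 over the family's probe sets and 0.02 over all. The ranges of the groups did not overlap at 15 of the 30 probe sets, 10 lower and 5 higher, where 32.1% of all probe sets showed this (14.9% lower and 17.1% higher).

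**Figure D1:**
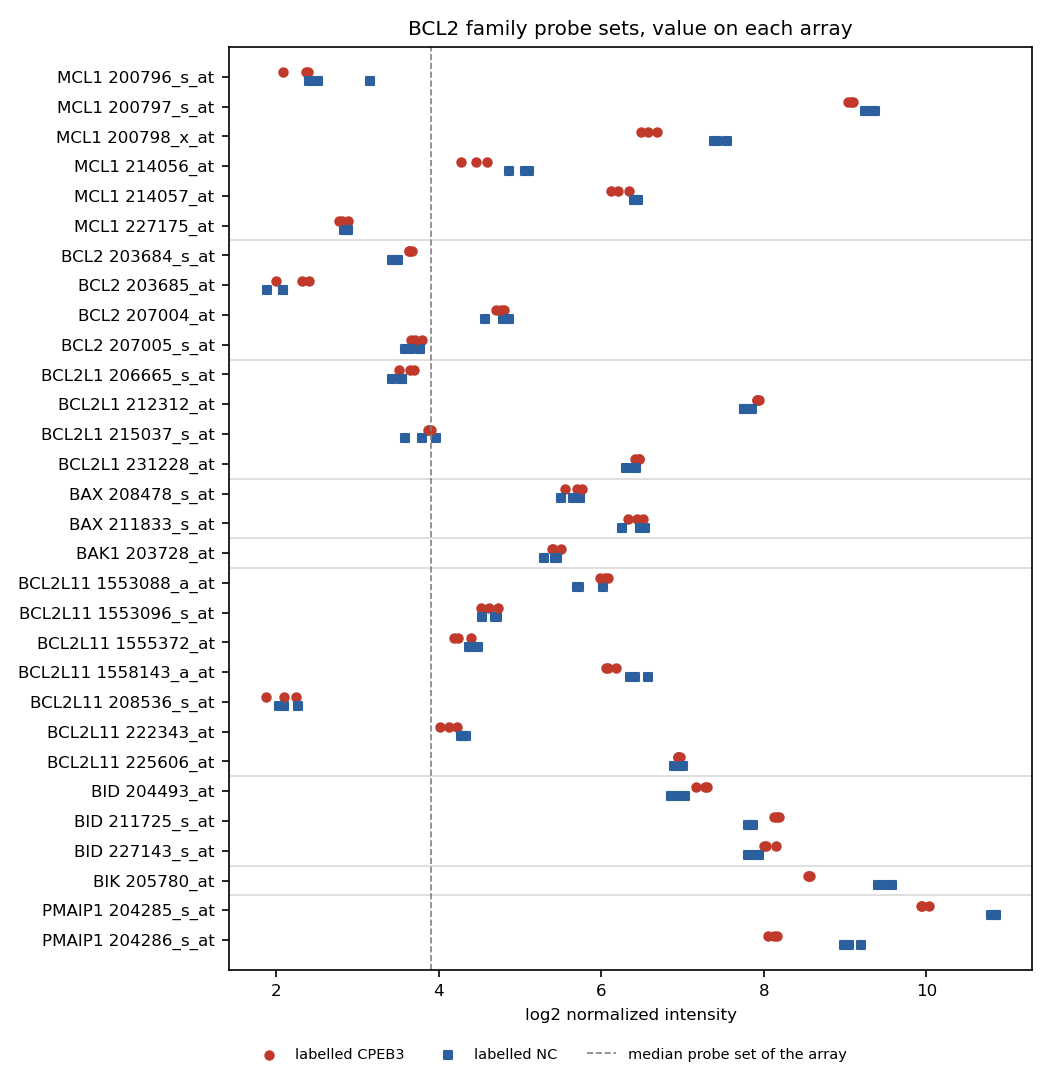
Log2 normalized intensity (x axis) of the 30 BCL2 family probe sets (rows) on each of the 3 arrays labelled CPEB3 (circles) and the 3 labelled NC (squares); the dashed line is the median probe set, at 3.90. At BIK and at both PMAIP1 probe sets the groups lie clearly apart, while those of BAX and BAK1 overlap; 8 of the 30 probe sets lie left of the line.

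PMAIP1 encodes NOXA, a small BH3-only protein that binds MCL1 and promotes its degradation. At probe set 204285_s_at the arrays labelled CPEB3 gave 10.03, 9.94 and 9.93 and those labelled NC 10.80, 10.84 and 10.85. Every NC array was higher, and the gap between the groups was wider than either group's range. The fall was 0.86 on the log2 scale with an SE of 0.06, from 10.83 ± 0.03 to 9.97 ± 0.05 (SD, n = 3 each), or 1.82-fold (limma, Benjamini-Hochberg adjusted p = 2.86e-05). Its other probe set, 204286_s_at, read 8.05, 8.16 and 8.12 against 9.20, 8.98 and 9.05, again without overlap. There the difference was -0.96 (SE 0.08; limma, Benjamini-Hochberg adjusted p = 4.12e-05), the largest of any single probe set of the family. The falls at the pair of probe sets differed from each other by 0.10, which an exact permutation test over the 6 arrays did not separate from their spread (two-sided p = 0.5). The design allows no p under 0.1 in such a test. Both probe sets are of a kind that can match several transcripts, and PMAIP1 had no other.

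The 250 bases before the annotated start of PMAIP1 are printed as the promoter of a member that fell at both of its probe sets, beside those of BID, the member that rose. They come from RefSeq (GRCh38.p14), whose table matched 8 of the 10 members by symbol; BIK and MCL1 were not among them. PMAIP1 is at chr18:59899746-59899995 on the plus strand and BID, at the first of its 5 listed starts, at chr22:17774470-17774719 on the minus strand; capitals mark a motif match.
PMAIP1: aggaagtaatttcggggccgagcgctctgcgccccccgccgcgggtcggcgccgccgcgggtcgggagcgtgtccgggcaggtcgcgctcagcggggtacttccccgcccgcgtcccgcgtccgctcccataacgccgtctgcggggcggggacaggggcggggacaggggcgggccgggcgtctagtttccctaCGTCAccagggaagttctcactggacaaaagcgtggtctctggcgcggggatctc
BID: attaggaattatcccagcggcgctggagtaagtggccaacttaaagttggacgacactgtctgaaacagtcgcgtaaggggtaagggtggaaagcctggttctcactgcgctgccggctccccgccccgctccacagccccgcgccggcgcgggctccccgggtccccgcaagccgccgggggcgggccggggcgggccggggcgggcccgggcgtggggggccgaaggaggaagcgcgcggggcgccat
Motifs were searched on both strands, namely an ISRE-like core GAAANNGAA, read by interferon-activated factors, the GAS element TTCNNNGAA of STAT proteins, the AP-1 site TGANTCA, the CRE half-site TGACG of ATF and CREB factors, and the EGR site GCGNGGGCG. No search motif overlaps another in these windows. PMAIP1 held a single match, a CRE half-site on the reverse strand 55 to 51 bases before the start, a motif that 21.2% of all 35116 promoter windows of this length contain. Its window had 72.8% G and C, and the BID window, with 72.0%, held no match. Among the other members, BCL2, BAX and BCL2L1 each had a CRE half-site, BCL2L11 an EGR site (in 8.41% of all windows) and BBC3 an AP-1 site (6.57%). No window of a member held the ISRE-like core (6.88% of all) or the GAS element (6.57%).

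BIK is a BH3-only protein that resides largely at the endoplasmic reticulum and was read by a single probe set, 205780_at. The arrays labelled CPEB3 gave 8.55, 8.57 and 8.54, and those labelled NC 9.41, 9.58 and 9.52. The former were tightly grouped and all lay well under the lowest NC array. The difference was -0.95 (SE 0.07, 95% interval -1.10 to -0.79), or 1.93-fold lower (limma, Benjamini-Hochberg adjusted p = 2.43e-05). Falls of at least 1.8-fold that passed the test, a bound chosen after the values were seen, occurred at 0.862% of all probe sets.

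MCL1 encodes a short-lived pro-survival protein and had 6 probe sets, all with a difference under 0, of which 3 passed. At 200798_x_at the arrays labelled CPEB3 gave 6.57, 6.49 and 6.68 against 7.55, 7.39 and 7.42. The groups lay far apart there, with a difference of -0.87 (SE 0.08; limma, Benjamini-Hochberg adjusted p = 9.05e-05), or 1.83-fold. At 214056_at the values were 4.60, 4.27 and 4.46 against 5.06, 4.87 and 5.11, a difference of -0.57 (SE 0.10; limma, Benjamini-Hochberg adjusted p = 0.00451). The brightest probe set, 200797_s_at, gave 9.10, 9.03 and 9.07 against 9.25, 9.37 and 9.34. These groups also did not overlap, with a smaller fall of 0.25 (1.19-fold, SE 0.07; limma, Benjamini-Hochberg adjusted p = 0.0305). That call was lost without any one of CPEB3 replicates 1, 2 or 3 or NC replicates 2 or 3 (adjusted p = 0.0646, 0.109, 0.0754, 0.101 and 0.0829), and kept without NC replicate 1 (adjusted p = 0.033). By their ID endings 200798_x_at and 200797_s_at are of a kind that can match several transcripts, unlike 214056_at.

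At the other 3 MCL1 probe sets the differences were -0.41 (200796_s_at), -0.20 (214057_at) and -0.04 (227175_at), with limma Benjamini-Hochberg adjusted p = 0.16, 0.109 and 0.719. The first and last of these were dimmer than the median probe set. The differences of the MCL1 probe sets lay up to 0.82 apart, between 200798_x_at and the dim 227175_at, a pair picked as the extremes of the 6 and so given without a test. The log2 difference between that pair was 3.61 to 3.91 in the arrays labelled CPEB3 and 4.55 to 4.66 in those labelled NC. Where each probe set lies in the MCL1 transcripts was not analysed here. With the mean of its 6 probe sets MCL1 fell by 0.39 with an SE of 0.06 (limma, Benjamini-Hochberg adjusted p = 0.00241).

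BCL2, the founding pro-survival member, was dim, with 3 of its 4 probe sets under the median probe set. Its brightest probe set, 207004_at, gave 4.70, 4.80 and 4.77 against 4.57, 4.79 and 4.87, overlapping groups with a difference of 0.01 (95% interval -0.18 to 0.21). At 203684_s_at the arrays labelled CPEB3 (3.63, 3.64 and 3.67) all lay above those labelled NC (3.50, 3.45 and 3.42), yet the difference of 0.19 did not pass (limma, Benjamini-Hochberg adjusted p = 0.0756). The remaining pair differed by 0.22 (203685_at) and 0.05 (207005_s_at), with limma Benjamini-Hochberg adjusted p = 0.223 and 0.713. The first of these passed without CPEB3 replicate 1 (0.34, adjusted p = 0.0498).

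BCL2L1, whose main product BCL-XL protects many epithelial cells, had 4 probe sets with differences between 0.06 and 0.13. The brightest, 212312_at, gave 7.92, 7.91 and 7.94 against 7.76, 7.76 and 7.85. The groups did not overlap, but the difference of 0.13 (95% interval -0.01 to 0.28) did not pass (limma, Benjamini-Hochberg adjusted p = 0.205). The interval leaves room for a rise of up to 1.21-fold. Splice forms of BCL2L1 with opposite functions cannot be told apart from these values.

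BAX and BAK1 form the pores that release cytochrome c. BAX read 6.33, 6.44 and 6.51 against 6.25, 6.54 and 6.48 at 211833_s_at, with the groups fully interleaved. The differences at its pair of probe sets were 0.00 (95% interval -0.20 to 0.20) and 0.04 (95% interval -0.15 to 0.23). BAK1 gave 5.39, 5.51 and 5.41 against 5.29, 5.46 and 5.43 at its 1 probe set, which also overlapped. Its difference was 0.04 (95% interval -0.12 to 0.21; limma, Benjamini-Hochberg adjusted p = 0.75).

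BCL2L11 encodes BIM, which binds all pro-survival members and is made in several splice forms. Its 7 probe sets ran from -0.34 to 0.22, and 1 passed. At that one, 1558143_a_at, the arrays labelled CPEB3 gave 6.08, 6.06 and 6.18 against 6.35, 6.41 and 6.58. These groups did not overlap, and the difference was -0.34 (SE 0.08; limma, Benjamini-Hochberg adjusted p = 0.0176). The call was lost without CPEB3 replicate 1 or 2 or NC replicate 3 (adjusted p = 0.0637, 0.0697 and 0.0545).

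At 1553088_a_at BCL2L11 was higher instead, by 0.22 (6.05, 6.08 and 5.99 against 6.02, 5.73 and 5.70), and did not pass (limma, Benjamini-Hochberg adjusted p = 0.146) unless NC replicate 1 was left out (0.32, adjusted p = 0.023). The brightest BCL2L11 probe set, 225606_at, read 6.95, 6.97 and 6.95 against 6.90, 6.95 and 7.01 and differed by 0.00 (95% interval -0.14 to 0.14). The log2 difference between 1558143_a_at and 1553088_a_at, picked as the extremes of the 7 and so not tested, was -0.02 to 0.19 in the arrays labelled CPEB3 and 0.33 to 0.88 in those labelled NC. With the mean of its probe sets the gene differed by -0.07 (limma, Benjamini-Hochberg adjusted p = 0.311), so no single direction describes it.

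BID links death receptors to mitochondria, since caspase-8 cleaves it to its active form, and was the only member gene that rose. At its brightest probe set, 211725_s_at, the arrays labelled CPEB3 gave 8.19, 8.13 and 8.16 against 7.81, 7.87 and 7.84. All 3 were above every NC array, by 0.32 on average (SE 0.06), or 1.25-fold (limma, Benjamini-Hochberg adjusted p = 0.00768). At 204493_at the values were 7.28, 7.16 and 7.30 against 6.94, 6.86 and 7.03, a rise of 0.30 (SE 0.07; limma, Benjamini-Hochberg adjusted p = 0.023). That call was lost without CPEB3 replicate 1 or 3 or NC replicate 1 or 2 (adjusted p = 0.0794, 0.0768, 0.0583 and 0.0821). The last, 227143_s_at, gave 8.15, 8.0 and 8.03 against 7.80, 7.94 and 7.90, higher by 0.18 without passing (limma, Benjamini-Hochberg adjusted p = 0.146).

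**Figure D2:**
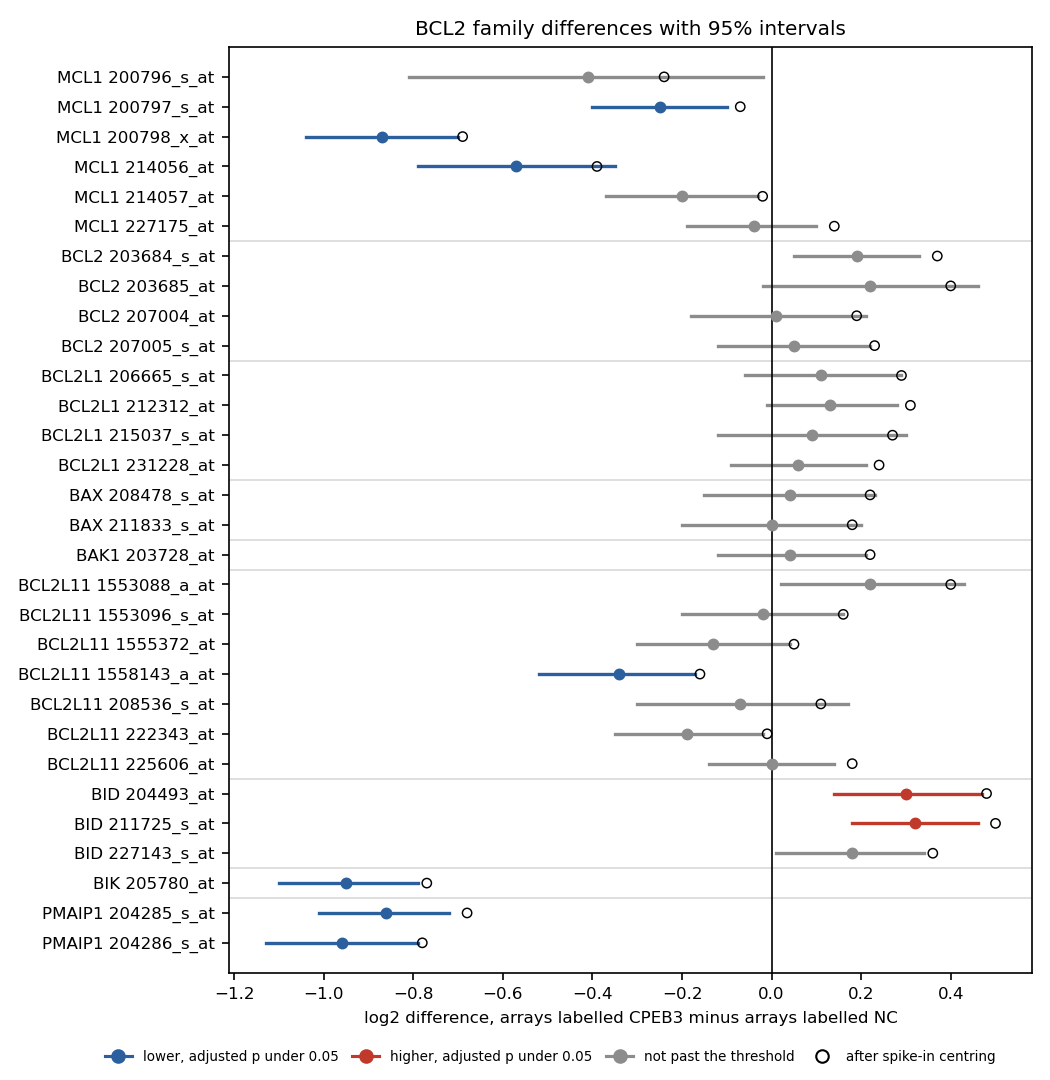
Log2 difference, arrays labelled CPEB3 minus arrays labelled NC (x axis), of each BCL2 family probe set (rows) with its 95% limma interval; filled points are coloured by the test, and open circles give the difference with spike-in centring of every array. PMAIP1 and BIK lie between -0.96 and -0.86 and the 6 MCL1 probe sets between -0.87 and -0.04, while the open circles lie 0.18 to the right of every filled point.

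Whether the small differences passed the test depended on the scaling. Centring each array, already normalized with RMA, on the 18 hybridization spike-in probe sets raised every difference by 0.18. Which scaling lies nearer to the RNA content of the cells was not tested. PMAIP1 (-0.68 and -0.78), BIK (-0.77) and MCL1 at 200798_x_at (-0.69) and 214056_at (-0.39) still fell under that scaling. MCL1 at its brightest probe set (-0.07; limma, Benjamini-Hochberg adjusted p = 0.515) and BCL2L11 at 1558143_a_at (-0.16; limma, Benjamini-Hochberg adjusted p = 0.157) lost their calls. All 3 BID probe sets then passed (0.36 to 0.50), as did BCL2 at 203684_s_at (0.37) and 203685_at (0.40), BCL2L1 at 206665_s_at (0.29) and 212312_at (0.31), and BCL2L11 at 1553088_a_at (0.40). The split of called probe sets so changed from 7 lower and 2 higher to 5 lower and 8 higher.

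Genes were also compared at their brightest probe set, which gave 3 member genes lower (BIK, PMAIP1 and MCL1), 1 higher (BID) and 5 not past the threshold, where 10.5% of all 19775 genes fell and 8.32% rose, or 18.8% in either direction. The median was 0.00 over the members and 0.02 over all genes. Among 13 other relatives of the family 3 fell and 1 rose, with a median of -0.04. BNIP3 and BNIP3L, mitochondrial proteins of mitophagy that are distantly related to the BH3-only group and are induced in hypoxia, fell by 0.97 (SE 0.07) and 0.75 (SE 0.08), with limma Benjamini-Hochberg adjusted p = 1.56e-05 and 2.25e-04. BCL2L12 fell by 0.29, and BAD, a BH3-only protein controlled by phosphorylation, rose by 0.37 (SE 0.10; limma, Benjamini-Hochberg adjusted p = 0.0369). The count of relatives that rose was 0 without any one of CPEB3 replicates 1, 2 and 3 or NC replicates 1 and 2. BCL2A1, a pro-survival NF-kB target, was dim in both groups (1.28 and 1.31), and BCL2L2, HRK, BMF and BOK did not pass (-0.17, -0.14, 0.11 and 0.09).

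Downstream of the pore, 3 of 14 measured genes of the mitochondrial death machinery fell and 3 rose, with a median of 0.03. The shares over all genes at their brightest probe set were 10.5% lower and 8.32% higher. APAF1, the scaffold of the apoptosome, fell by 0.74 with an SE of 0.09 (limma, Benjamini-Hochberg adjusted p = 5.65e-04). The inhibitor of apoptosis genes BIRC5 and BIRC2 fell by 0.32 and 0.28, whereas the mitochondrial flavoprotein gene AIFM1 rose by 0.28 (limma, Benjamini-Hochberg adjusted p = 0.0135, 0.0224 and 0.0378). ENDOG (0.27) and VDAC3 (0.25) were the others that rose, and are named outside the rule for named genes. Leaving out any 1 of the 6 arrays left 0 or 1 of this list higher, and 1 gene lower without CPEB3 replicate 2 or NC replicate 2. The cytochrome c gene CYCS (0.06) and CASP9 (-0.01) did not pass.

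Of 7 measured genes that link death receptors to BID, 2 fell and 1 rose, with a median of -0.07. For this list and the next, the shares over all genes were 10.5% lower and 8.32% higher. CASP8, the protease that cleaves BID, fell by 0.42 with an SE of 0.06 (limma, Benjamini-Hochberg adjusted p = 0.00224) and the TRAIL receptor gene TNFRSF10B by 0.32, while the death receptor gene FAS rose by 0.38 (limma, Benjamini-Hochberg adjusted p = 0.00939 and 0.00439). With spike-in centring 0 of them fell and 2 rose. Among 9 genes for protein turnover and binding partners of the family, the ubiquitin ligase gene MARCHF5 fell by 0.27 and the ligase adaptor gene BTRC rose by 0.28 (limma, Benjamini-Hochberg adjusted p = 0.0176 and 0.0147). The fall was lost without CPEB3 replicate 2 or 3 or NC replicate 2, and the rise without CPEB3 replicate 3. The MCL1 ligase genes HUWE1 and FBXW7 and the MCL1 deubiquitinase gene USP9X differed by 0.00, -0.03 and 0.03.

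Of 11 measured transcription factors that act on family promoters, 6 fell and 0 rose, with a median of -0.26. Over all genes at their brightest probe set 10.5% fell and 8.32% rose, but this list was chosen with earlier results known. EGR1 fell by 2.25, DDIT3, the stress factor CHOP, by 1.37, JUN by 1.24 and NFKB1 by 0.53 (limma, Benjamini-Hochberg adjusted p = 5.85e-08, 2.33e-06, 4.95e-06 and 0.00178). E2F1 (0.15), FOXO3 (-0.21) and STAT3 (0.00) did not pass.

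**Figure D3:**
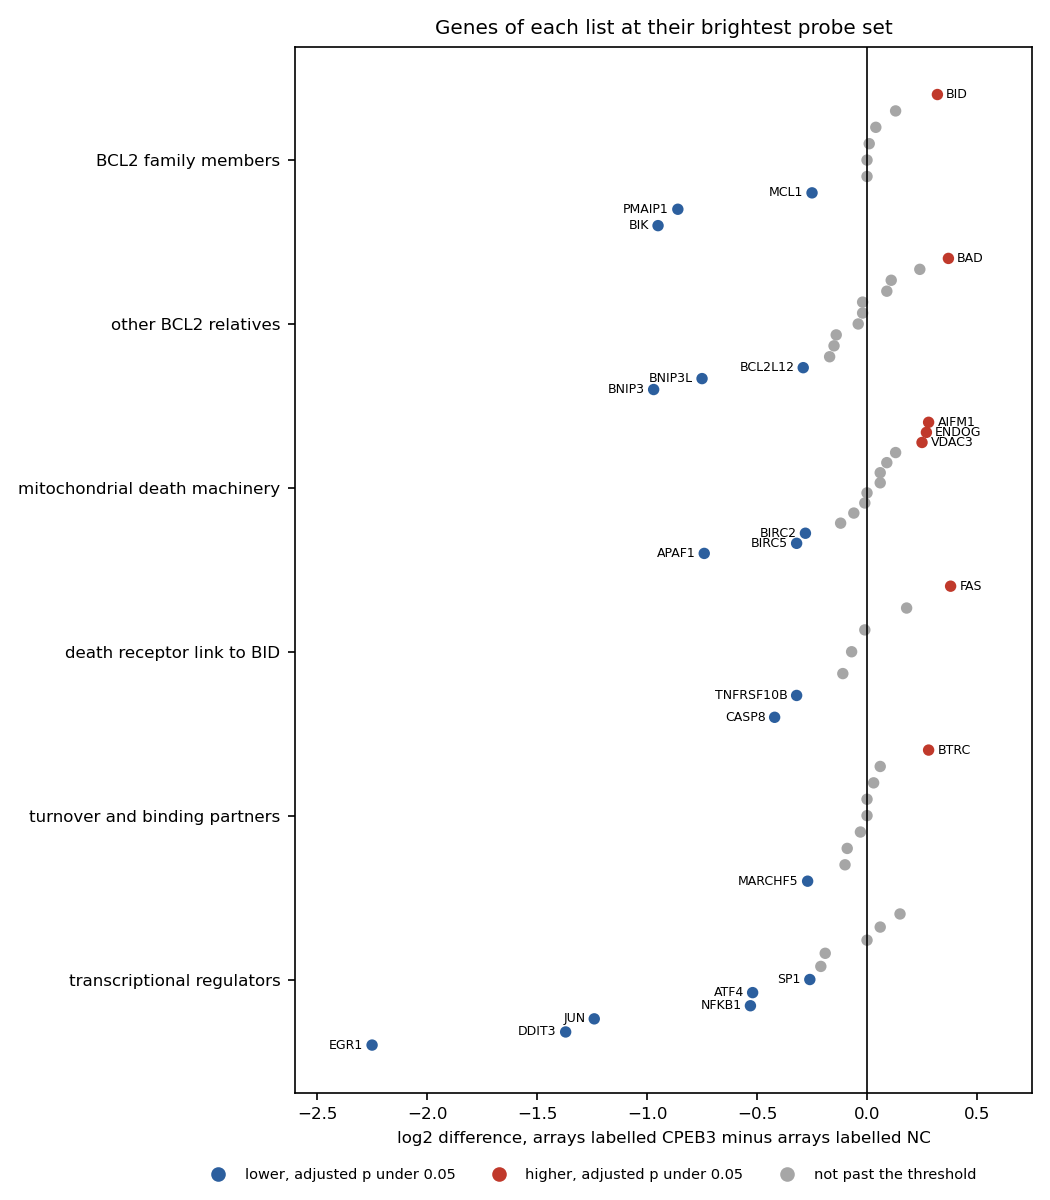
Log2 difference, arrays labelled CPEB3 minus arrays labelled NC (x axis), of each gene at its brightest probe set, for the BCL2 family members and 5 lists of related genes (rows); colours give the test, and genes past the threshold are named. The family's widest differences are BIK (-0.95) and PMAIP1 (-0.86), near BNIP3 (-0.97), with EGR1 (-2.25) farthest left of all plotted genes.

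The genes whose values ran most like those of PMAIP1 at 204286_s_at over the 6 arrays were STIL (r = 0.9993), WDR45B (r = 0.9992) and REV1 (r = 0.999). Their own falls were smaller, at 0.36, 0.27 and 0.39 on the log2 scale. With 6 arrays in 2 groups such a correlation mostly restates the gap between the groups, and 112 genes reached an r of at least 0.99.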

How the data were processed

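The data are 6 Affymetrix HG-U133 Plus 2.0 arrays of SW480 RNA. The authors deposited an intensity for every probe set, normalized with RMA per the submitters' processing notes and given on a linear scale; the RMA version, chip definition and back-transformation are not stated there. RMA equalises array distributions, which hides a change of total RNA and compresses small differences at dim probe sets. Log2 was taken before any test.

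Of 54675 probe sets, 62 are controls and were left out, 41091 have 1 gene symbol in the platform annotation, 1801 several and 11721 are unnamed here. Groups and replicate numbers come from the sample titles. The test was limma 3.58.1 under R 4.3.3 (group as the only term, two-sided, Benjamini-Hochberg over 54613 probe sets); 4 residual and 5.53 prior degrees of freedom. A gene's brightest probe set has the highest mean over the 6 arrays. No detection calls were used. Levels were ranked across probe sets only to pick a gene's brightest one and to place a probe set against the median of all; since probes differ in affinity, such a rank is no measure of transcript abundance. The number of arrays limits the precision.

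The members and gene lists were chosen with earlier results of these data known. All member probe sets are reported; from other lists, up to 4 called genes with the largest change, and 3 genes most like the member probe set with the largest difference. Uncalled list genes, ENDOG and VDAC3 were named after their values were seen. The promoter motifs were also chosen with the values known, and the ISRE-like core was shortened from a longer form after its matches had been counted; neither form matched a member window. On simulated data of 54613 probe sets the fit for this comparison recovered 0% of changes of 0.25, 84% of 0.5 and 100% of 1 and 2 on the log2 scale, with 9 false calls among 151; fewer probe sets changed there than in the real data, so its threshold was stricter. Alternatives were other sets of features, 3 scalings, other variance models, a replicate block, a stricter threshold and leaving out each array. Figures were drawn with matplotlib 3.10.9.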

Additional observations from a re-analysis of the deposited data

How the results depend on the processing

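With 6 arrays the precision is limited, and dim probe sets can understate a change. No called member probe set changed direction under any of the 18 alternatives. PMAIP1 (both probe sets), BIK, MCL1 at 200798_x_at and 214056_at, and BID at 211725_s_at kept their calls wherever they had a value, and MCL1 at 200797_s_at, BCL2L11 at 1558143_a_at and BID at 204493_at lost theirs under at least 1. Over all member probe sets, 409 of 464 recomputed values kept direction and side of the threshold, 18 lost and 12 gained a call, and 25, none of them called, changed sign. The gene fit gives a value for each gene's brightest probe set only, and the mean of probe sets none per probe set. Unless a setting's construction shows it, the cause of a change was not tested.

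Another setting left out probe sets with IDs ending in _s_at, _x_at or _a_at, a kind that can match several transcripts. That removed 6 of the 9 called member probe sets, PMAIP1's among them, and left 2 lower and 1 higher. It also left 1 member gene lower, 1 gene of the death machinery lower, 1 of the death receptor link lower and 0 of the turnover list higher. Spike-in centring, which adds 0.18 to every difference, gave 8 member probe sets higher and 2 member genes higher, 4 other relatives higher, 1 gene of the death machinery lower and 5 higher, 0 of the death receptor link lower and 2 higher, 0 of the turnover list lower and 1 transcription factor higher. It turned the sign of MCL1 at 227175_at (0.14) and of BCL2L11 at 1553096_s_at (0.16), 1555372_at (0.05) and 208536_s_at (0.11). An adjusted p under 0.01 left 1 member probe set higher, 0 other relatives higher, 1 gene of the death machinery lower and 0 higher, and 0 of the turnover list lower and 0 higher. The death receptor link had 2 higher with the gene fit, without dim probe sets, with quantile normalization once more and with an intensity trend, and 1 lower with the mean of probe sets. Median centring and array weights turned the sign of BCL2 at 207004_at (-0.0024 and -0.00017), BCL2L11 at 225606_at (-0.01 and -0.0016) and BAX at 211833_s_at (-0.01 and -0.02).

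Leaving out 1 array at a time gave 1 to 2 member probe sets higher, 0 to 1 other relatives higher, 1 to 3 genes of the death machinery lower and 0 to 1 higher, and 0 to 1 of the turnover list lower and 0 to 1 higher. Differences under that alternative ran from -0.07 to 0.08 for BCL2 at 207004_at, -0.01 to 0.18 for BCL2L1 at 215037_s_at, -0.08 to 0.03, -0.15 to 0.04 and -0.03 to 0.03 for BCL2L11 at 1553096_s_at, 208536_s_at and 225606_at, -0.02 to 0.10 and -0.09 to 0.06 for BAX at 208478_s_at and 211833_s_at, and -0.01 to 0.08 for BAK1. With the replicate number as a block 6 member probe sets fell and 2 rose; MCL1 at 200797_s_at was not called there (difference -0.25, adjusted p = 0.0609 by limma). The deviations of same-numbered arrays correlated with r = 0.00647, 0.00121 and 0.0926, so little of a shared replicate effect was seen. Such values cannot show whether same-numbered arrays were cultured or processed together, which the labels do not state.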
